A study of Mus musculus with 4 samples.

Results

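The genes of oxidative phosphorylation were described in 4 single-cell libraries of microglia and other myeloid cells from mouse cortex and hippocampus. They were taken by symbol: the protein-coding genes of mitochondrial DNA (mt-Nd, mt-Co, mt-Cytb and mt-Atp), and the nuclear genes whose symbols start with Nduf, Sdh, Uqcr, Cox4 to Cox8 or Atp5. A total of 105 genes matched, and 94 of these reached a mean of 10 CPM (counts scaled to a common library total, where UMIs are the unique molecular identifiers that mark captured transcripts) over the summed libraries. The 94 held 12 mitochondrially encoded genes and 82 nuclear genes, of which 74 encode subunits of the complexes and 8 encode assembly, supercomplex or other factors. Each library came from 1 male C57BL/6J mouse aged 90 days (n = 4, replicates 1 to 4, numbers that only name the libraries), and all 4 formed a single group. All mice had been given PBS (phosphate-buffered saline) by tail vein, 24 hours before sacrifice per the labels, and the cells of each were freed by cold Dounce, that is, by grinding the chilled tissue without enzymes. Per the study's methods, live CD45+/CD11b+ cells were sorted, which takes in microglia together with other brain myeloid cells, and the methods give another interval after the injection, so this interval is uncertain.

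Oxidative phosphorylation makes ATP in the inner mitochondrial membrane. Complex I (NADH dehydrogenase) and complex II (succinate dehydrogenase) pass electrons to ubiquinone, complex III (cytochrome bc1) passes them to cytochrome c, complex IV (cytochrome c oxidase) passes them to oxygen, and complex V (ATP synthase) uses the proton gradient that builds up. Complexes I, III, IV and V are built from subunits of both genomes, whereas complex II is nuclear encoded throughout, so the transcripts of the 2 genomes have to supply parts of the same machines. Microglia, the resident macrophages of the brain, respire in the resting state and are known to lean more on glycolysis when activated.

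Library totals ran from 5841671 to 11267195 UMIs over 13002 cells, of 13138 barcodes in the files, and 81 barcodes occurred in more than 1 library. The limit of 10% mitochondrial UMIs per cell on its own removed 9 cells. The 8 microglia markers summed to 34891 to 36299 CPM, and the 11 markers of border and blood myeloid cells summed to 39.0 to 125 CPM. Markers of neurons summed to at most 2.27 CPM, of astrocytes to at most 6.44, and those of erythroid cells, neutrophils and T or NK cells were near 0, at 0.142 CPM or less. Oligodendrocyte (54.9 CPM), B cell (48.3) and endothelial (31.2) lists rested mostly on 1 gene each, Mag, Cd79b and Pecam1. Replicate 4 stood apart in the sum of 8 immediate early genes, at 2640 CPM against 1013 to 1173 CPM in the others. All 8 were highest in replicate 4, and 6 of them stood apart singly. The summed levels, the ratios and the comparisons between groups of cells were recomputed without replicate 4. In summed libraries, fewer cells of a kind and less RNA per cell cannot be told apart. The kit counts the 3′ end of each transcript once, so levels of different genes were compared as UMI counts, without scaling to length.

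Mitochondrially encoded transcripts made up as much of the RNA as all 74 nuclear subunit genes together. Their 12 levels added up to 14693, 13152.5, 12019 and 12602 CPM in replicates 1 to 4, a mean of 13117 ± 1148 CPM (SD, n = 4). The 74 nuclear subunit genes summed to 13138, 13995, 13158 and 12914 CPM, a mean of 13301 ± 475 CPM. Replicate 1 was highest in the mitochondrial sum and replicate 2 in the nuclear sum, so the order of the libraries differed between the genomes. Counting error was small at this depth, with a 95% exact Poisson interval of 14604 to 14783 CPM for the mitochondrial sum in replicate 1, and it covers counting error only.

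Single genes differed far more between the genomes than the sums did. The median mitochondrial gene was at 1084 CPM, and the median nuclear subunit at 153 CPM. mt-Co3, a core subunit of complex IV encoded at 8607 to 9390 of the mitochondrial genome (GRCm38), was the highest of the 94, at 3023, 2726, 2528 and 2659 CPM. The next in order were mt-Atp6, the proton channel subunit of ATP synthase (2259 ± 191 CPM), mt-Nd1 (1773 ± 134) and mt-Cytb, cytochrome b of complex III (1712 ± 149). mt-Nd1 and mt-Cytb differed by less than their spread between mice, though mt-Nd1 was the higher in each library. mt-Co1, the catalytic subunit of complex IV, was at 1392 ± 132 CPM, mt-Nd4 at 1106 ± 113, mt-Co2 at 1062 ± 107 and mt-Nd2 at 662 ± 100.1. Of these, mt-Nd4 and mt-Co2 also lay within their spread between mice, with mt-Nd4 the higher in each library. The 12 genes span the same long transcripts of the mitochondrial heavy strand, yet the lowest members lay far below the others. mt-Nd3 was at 220.03 ± 31.3 CPM, mt-Nd5 at 91.8 ± 8.26, mt-Nd4l at 65.03 ± 6.40 and mt-Atp8 at 40.1 ± 6.98. mt-Nd6, whose gene lies on the opposite strand from the other 12 (13552 to 14070, minus strand), fell below the 10 CPM limit, at 6.92 to 7.53 CPM.

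The members with the lowest mitochondrial levels include those whose reading frame overlaps that of a following gene on the same messenger RNA. They are shown because a read inside the overlap is compatible with both genes, so such a read cannot be assigned to 1 of them. The overlap of mt-Atp8 and mt-Atp6 spans chrM:7927-7969 (GRCm38, plus strand, GENCODE M21), where 43 bases are shared, and the overlap of mt-Nd4l and mt-Nd4 spans chrM:10167-10173 and shares 7 bases. In the first sequence the capitals mark the start codon of mt-Atp6 and the stop codon of mt-Atp8.
mt-Atp8/mt-Atp6: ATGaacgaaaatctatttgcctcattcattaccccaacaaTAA
mt-Nd4l/mt-Nd4: atgctaa
The following gene had far more UMIs in both pairs. mt-Atp6 exceeded mt-Atp8 by 55.3, 66.3, 43.0 and 66.4 times in replicates 1 to 4, a mean of 57.7 ± 11.1 times (SD, n = 4). mt-Nd4 exceeded mt-Nd4l by 15.98 to 17.99 times in the 4 libraries. Both lie on a shared messenger whose 3′ end follows the second gene. The values of mt-Atp8 and mt-Nd4l therefore stand for the counts assigned to these genes and not for the amount of a separate transcript.

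**Figure D1:**
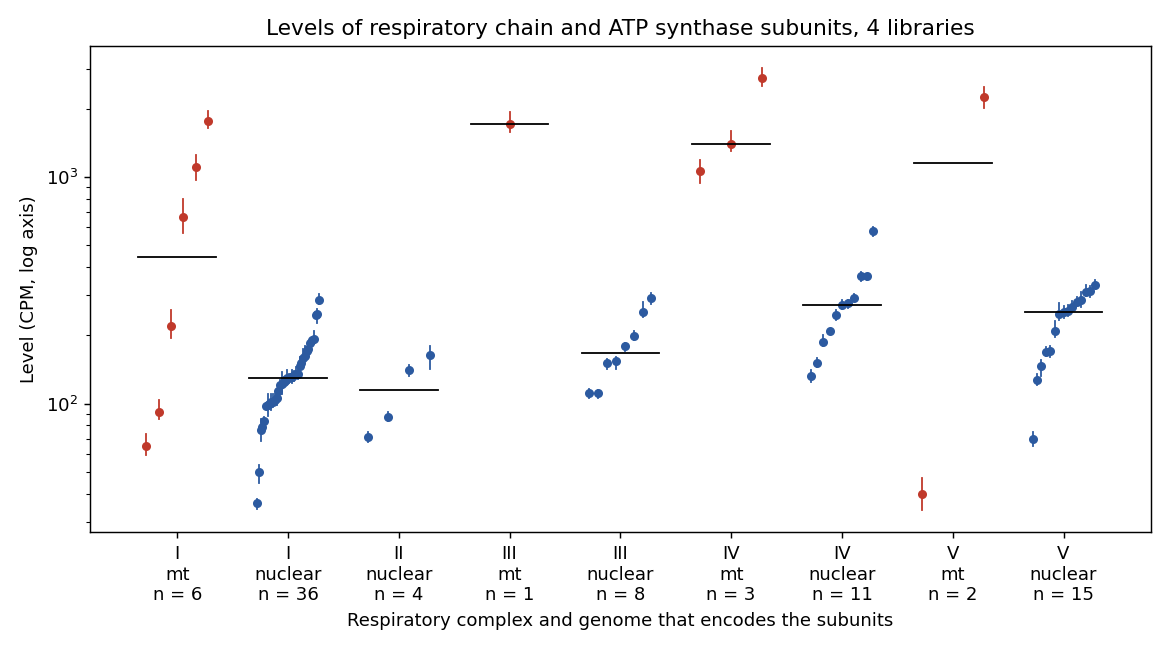
Each point is the mean level of 1 subunit gene (CPM, log axis), with a vertical line from its lowest to its highest library (n = 4) and a black line at the median of the group, for mitochondrially encoded (red) and nuclear (blue) subunits of each complex. Nuclear subunits sit between 36.5 and 575 CPM, while the mitochondrial genes spread from 40.1 to 2734 CPM.

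Within the mitochondrial genome the proportions of the genes were stable from mouse to mouse. mt-Co3 made up 20.6%, 20.7%, 21.02% and 21.1% of the UMIs of the 13 mitochondrial genes, and mt-Atp6 made up 17.2% ± 0.453 (SD, n = 4). mt-Nd1 gave 13.5% ± 0.165 and mt-Cytb 13.04% ± 0.138. mt-Nd2 ran from 5.42% in replicate 1 to 4.47% in replicate 4.

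Nuclear subunits were ordered by complex. Complex IV and complex V subunits were the most abundant per gene, with medians of 272 CPM over 11 genes and 253 CPM over 15 genes. Medians of 167 CPM over 8 genes of complex III, 129.6 CPM over 36 genes of complex I and 114 CPM over 4 genes of complex II followed. Cox4i1, the largest nuclear subunit of cytochrome c oxidase (chromosome 8, 120668222 to 120674207, GRCm38), was the highest nuclear member, at 570, 599, 581 and 551 CPM. It was followed in complex IV by Cox8a (366 ± 11.5 CPM) and Cox7c (366 ± 14.3), which did not differ beyond their spread, and the lowest subunit of complex IV was Cox7b (132 ± 6.87). In complex V the highest were Atp5b, the catalytic beta subunit (333 ± 12.8 CPM), Atp5l (313 ± 17.6) and Atp5j (312 ± 15.3), and the lowest was Atp5g3 (69.9 ± 3.93).

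Complex III was led by Uqcrb (291 ± 13.2 CPM), Uqcrh, the hinge protein that contacts cytochrome c1 (255 ± 18.5), and Uqcr11 (199 ± 7.92), and its lowest members were the core protein Uqcrc2 (111 ± 3.93) and the Rieske iron-sulfur protein Uqcrfs1 (111 ± 5.02), which did not differ beyond their spread. In complex I the highest were the accessory subunits Ndufc2 (286 ± 13.4 CPM), Ndufa2 (247 ± 14.6) and Ndufa13 (245 ± 5.57). The lowest subunit of complex I was Ndufs1, the large iron-sulfur core subunit, at 36.0, 34.3, 37.7 and 38.0 CPM. Complex II had Sdhb (163 ± 15.8 CPM), Sdha (141 ± 7.96), Sdhd (87.6 ± 3.23) and Sdhc (70.9 ± 3.08). Its 2 catalytic subunits, Sdha and Sdhb, were thus above its 2 membrane anchors in each library. The 8 factors that the symbols also take in had a median of 40.1 CPM. Cox7a2l, counted here as a factor of supercomplexes of complexes III and IV, was the exception among them at 336 ± 26.6 CPM.

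The balance of the genomes differed between complexes. The ratio of summed mitochondrial to summed nuclear CPM was 1.91, 1.62, 1.56 and 1.66 for complex IV in replicates 1 to 4 (mean 1.69 ± 0.151, SD, n = 4). It was 1.18 ± 0.114 for complex III, 0.805 ± 0.0855 for complex I and 0.669 ± 0.0535 for complex V. Over all complexes, complex II included, it was 0.987 ± 0.0913. The order IV, III, I, V held in each of the 4 libraries. In log2 units, complex IV exceeded complex V by 1.34 ± 0.0543, complex I minus complex III was -0.55 ± 0.0359, and complex I exceeded complex V by 0.26 ± 0.0760, the smallest of the 6 differences. Each of the 6 pairs had the same sign in 4 of 4 libraries, for which an exact two-sided sign-flip permutation test gave p = 0.125, the smallest p that 4 libraries allow, and 0.125 after Benjamini-Hochberg adjustment over the 6 pairs. The ratios compare counts of transcripts, and complexes with few mitochondrial genes (1 in complex III, 2 in complex V) rest on those genes.

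**Figure D2:**
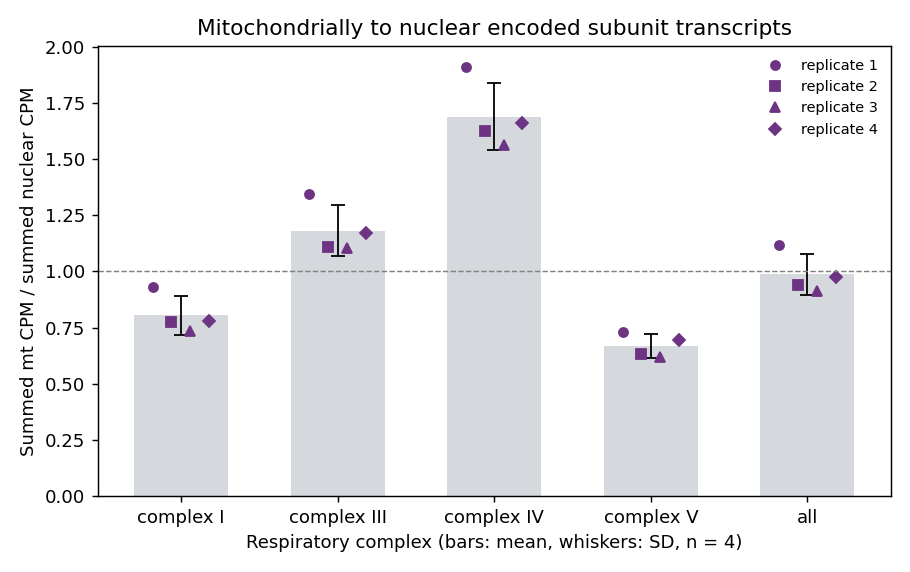
Bars give the mean ratio of summed mitochondrial to summed nuclear CPM per complex, whiskers the SD and symbols the 4 libraries, with a dashed line at 1. Complex IV is the highest at 1.69 and complex V the lowest at 0.669, and replicate 1 is the highest symbol in every column.

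Several nuclear subunits of complexes IV and V exist as paralogs that are known to differ between tissues. The tissue-restricted forms of complex IV were low, at 5.003 CPM or less. Cox4i1 had 19113 UMIs, against 1 UMI for Cox4i2, the form known from lung. Cox6a1 had 98.2% ± 0.675 of the UMIs of its pair (SD, n = 4) and Cox6a2, the form of heart and skeletal muscle, the rest, at 5.003 ± 1.80 CPM. Cox6b1 had 98.7% ± 0.252 of its pair and Cox6b2, the form of testis, 3.94 ± 0.730 CPM. Cox7a1, another muscle form, had 23 UMIs in all, against 6940 for Cox7a2 and 11256 for Cox7a2l, the supercomplex factor of the same family, which made up 61.6% ± 1.59 of its UMIs. Cox7b2, Cox8b, Cox8c and Ndufa4l2 had 0 UMIs in every library, and 3 UMIs over all libraries would have been 0.0905 CPM.

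Subunit c of ATP synthase, the rotating ring, is encoded by 3 genes that give the same mature protein. Atp5g2 supplied 53.1%, 52.8%, 49.4% and 50.7% of their UMIs in replicates 1 to 4, Atp5g1 34.3% ± 1.93 and Atp5g3 14.2% ± 0.454. The ranges of the 3 shares did not overlap. Genes with near-identical copies elsewhere in the genome can lose or gain reads in a 3′ count, which limits the comparison of paralogs.

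Across the 4 mice the mitochondrial genes moved together, and so did the nuclear genes, but not with each other. All 8 mitochondrial genes at 500 CPM or more were highest in replicate 1, and 11 of the 12 were, the exception being mt-Atp8, which was highest in replicate 3. Of the 267 genes at 500 CPM or more, 36.3% were highest in replicate 1. All 10 interferon markers (148 CPM there against 88.5 to 98.8 CPM) and 69 of 97 cytoplasmic ribosomal proteins were also highest in replicate 1, and their part in this order was not tested. Of the 74 nuclear subunits, 58 were highest in replicate 2 (78.4%), against 20.1% of all 7656 genes at 10 CPM or more. Among genes at 100 to 600 CPM, the range of most nuclear subunits, 82.5% of the 63 subunits and 34.8% of all 1347 genes were highest in replicate 2. Replicate 2 was the most deeply sequenced library, with a median of 2936 UMIs per cell against 1905 to 2786 in the others, and its part in this order was not tested. The differences were small. The median SD of log2 CPM was 0.066 for nuclear subunits, 0.13 for mitochondrial genes and 0.11 for all 7656 genes. The median SD was 9.97 times the counting SD for the 8 mitochondrial genes at 500 CPM or more and 5.64 times for all genes at that level, a ratio that rises with the level of a gene.

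**Figure D3:**
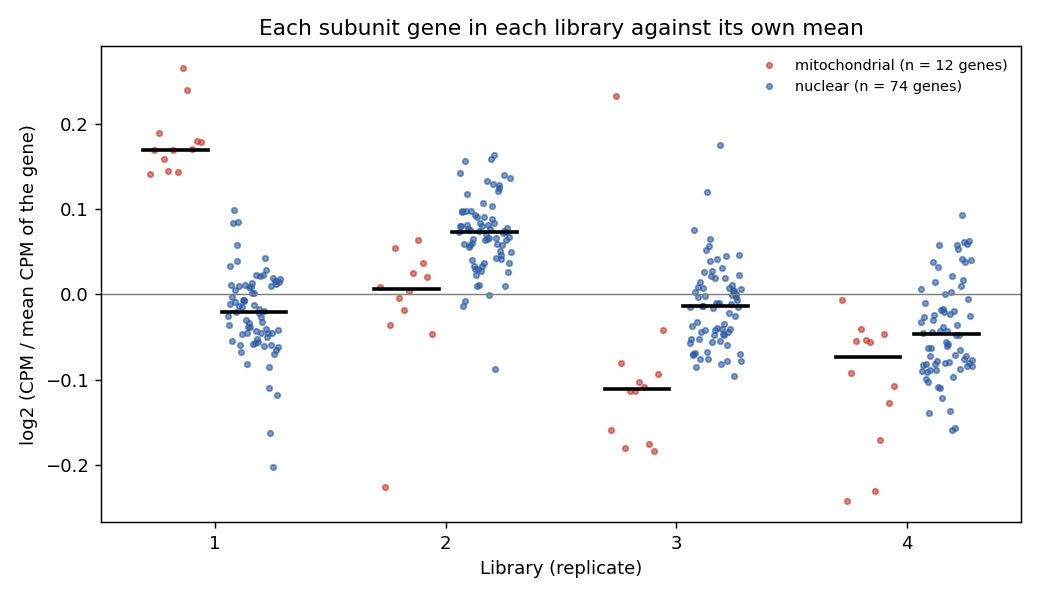
Each point is 1 subunit gene in 1 library, as log2 of its CPM over its own 4-library mean, for 12 mitochondrial (red) and 74 nuclear (blue) genes, with black lines at the medians. Red points lie highest in replicate 1 and blue points highest in replicate 2, and nearly all points lie within 0.25 of 0.

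Dixon's range test, which compares the gap beside the most distant library with the range of all 4, set 1 library apart for 1 of the 94 members, against 4.62% of the 7656 genes tested. The member was Ndufb10, an accessory subunit of complex I (chromosome 17, 24722060 to 24724478). It was at 158, 178, 158 and 156 CPM, so replicate 2 was high and the other 3 lay together. Neither summed level stood apart in a library, with gaps of 0.576 of the range for the mitochondrial sum and 0.774 for the nuclear sum.

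Between cells the mitochondrial sum varied more than the nuclear sum in each library. To put cells at 1 depth, 1000 UMIs were drawn from each, which left out 23 to 85 cells per library. Both sets then had like means, 12.97 ± 1.17 mitochondrial and 13.1 ± 0.449 nuclear subunit UMIs per cell (SD, n = 4). The ratio of variance to mean, which is 1 for counting noise alone, was 3.20, 2.77, 3.10 and 3.79 for the mitochondrial sum and 1.31, 1.25, 1.33 and 1.26 for the nuclear sum. The mitochondrial ratio was 2.5 ± 0.350 times the nuclear one and was higher in 4 of 4 libraries (exact two-sided sign-flip permutation test, p = 0.125, the smallest possible). Per complex the nuclear ratio was 1.09 for complex I, 0.990 for complex II, 1.02 for complex III, 1.12 for complex IV and 1.09 for complex V. Single mitochondrial genes stood at 1.47 for mt-Co3, 1.44 for mt-Atp6, 1.34 for mt-Nd1, 1.29 for mt-Cytb and 1.28 for mt-Co1. Their means were only 1.37 to 2.70 UMIs per cell. As a reference, cytoplasmic ribosomal proteins, with 78.5 UMIs per cell, had a ratio of 6.50 and glycolytic enzymes, with 2.97 UMIs, a ratio of 1.19. At equal relative variation the ratio rises with the mean, so it compares only sets of like means. The values per complex, of single genes and of the references do not rank relative variation. The 5th and 95th percentiles were 3.75 and 24.0 mitochondrial UMIs and 6.75 and 20.2 nuclear UMIs, as means over the libraries.

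**Figure D4:**
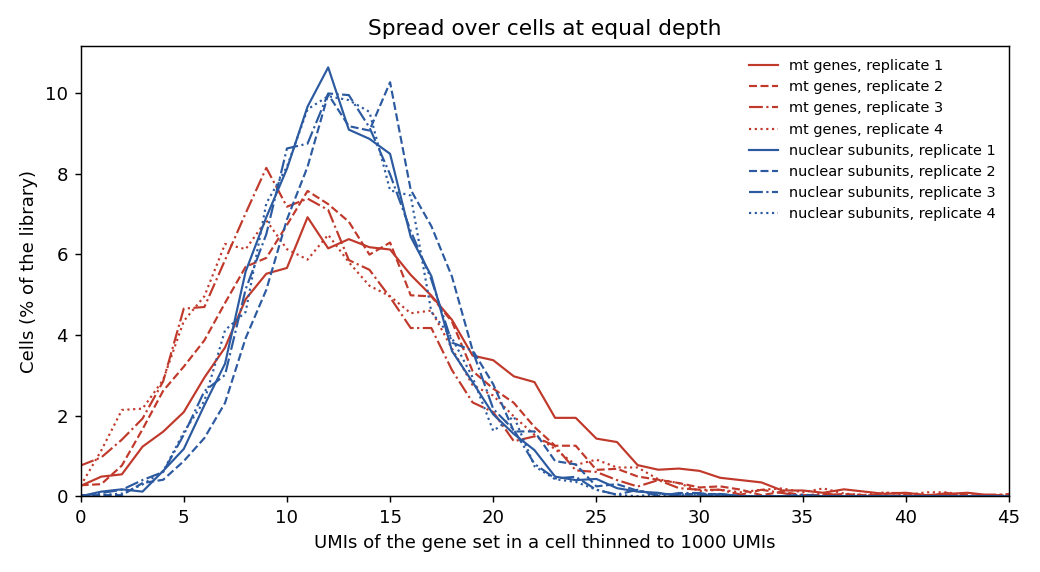
Curves give the share of cells (% of a library) by the number of UMIs of the set in a cell thinned to 1000 UMIs, for mitochondrial genes (red) and nuclear subunits (blue) in each of the 4 libraries. Both sets centre near 13 UMIs, and the red curves are lower and wider in each library.

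Cells rich in mitochondrial transcripts also carried more nuclear transcripts of the same complexes, by a small amount. The cells of each library were split into 4 equal bins by their share of mitochondrial UMIs, so the mitochondrial genes chose the split, and their own difference (3.16 ± 0.289 times between the top and bottom bin, SD, n = 4) is a description. Nuclear genes were then compared on totals without the mitochondrial genes. The 74 nuclear subunits summed to 12594, 13659, 12485 and 12360 CPM in the bottom bin and to 13667, 14313, 13810 and 13622 CPM in the highest, a ratio of 1.09 ± 0.0265. The top bin was above the lowest in 4 of 4 libraries (log2 difference 0.12 ± 0.0356, exact two-sided sign-flip permutation test, p = 0.125, the smallest possible).

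Gene by gene, 23 of 82 nuclear members were higher and 0 lower in the top bin (edgeR quasi-likelihood test with the library as a block, Benjamini-Hochberg adjusted p under 0.05 over 9042 genes). In the same comparison 3.51% of all genes tested were higher and 4.61% were called in either direction. Genes with more counts are called more easily, and these shares were not matched on level. The median nuclear subunit was at 153 CPM, against 37.9 CPM for all genes at 10 CPM or more. The median log2 fold change of the 82 was 0.14, against -0.01 for all genes, and 72 of the 82 were above 0. Without the library block 4 of the 82 were called (Atp5g2, Cox4i1, Ndufa1 and Uqcrh), all higher, DESeq2 called 15, and 8 were called when cells were thinned to 1000 UMIs. The 82 are not independent of each other, since they come from the same cells and libraries. With the library as a block, the edgeR p-values rest on counting error and on a variance estimated over genes together. They measure neither the variation of a single gene's difference among these 4 libraries alone nor the spread of levels between mice. The bins of 1 library share its mouse.

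Complex IV had the highest share of called subunits. Its nuclear subunits also had the highest median level, 272 CPM, and the complexes were not matched on level. Of the 11 nuclear subunits of complex IV 9 were higher, with a median log2 fold change of 0.23 and a range from 0.14 to 0.34. Cox4i1 was at 629, 628, 651 and 609 CPM in the top bin and at 513, 540.3, 504 and 497 CPM in the lowest, so the groups did not overlap (log2 fold change 0.34 ± 0.0355 SE, edgeR adjusted p = 2.84e-19). Cox7b, a small subunit encoded on the X chromosome, was at 141 to 146 CPM against 117 to 124 CPM (0.30 ± 0.0678, edgeR adjusted p = 0.000445). Cox5a and Cox7a2 were the 2 that did not pass, at 0.14 each. Complex III had 2 of 8 called, Uqcrh and Uqcrb. Uqcrh showed the largest fold change among the called members, at 305, 320, 274 and 289 CPM against 211, 238, 211 and 214 CPM (0.49 ± 0.0504, edgeR adjusted p = 1.95e-20).

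Complex V had 5 of 15 called. They were Atp5g2 (0.31 ± 0.0508, edgeR adjusted p = 6.77e-08), Atp5e, Atp5b, Atp5j2 and Atp5j. Atp5g2 was at 258 to 295 CPM against 220 to 240 CPM. Complex I had 6 of 36 called, with a median of 0.11, and they were the accessory subunits Ndufa1, Ndufa13, Ndufa3, Ndufb9, Ndufb3 and Ndufb8. Ndufa1, also X-linked, was at 106 to 121 CPM against 80.3 to 91.5 CPM (0.44 ± 0.0773, edgeR adjusted p = 9.48e-07). Ndufa3 was at 196 to 224 CPM against 159 to 182 CPM (0.30 ± 0.0581, edgeR adjusted p = 9.75e-06). Complex II had 0 of 4 called by edgeR and by DESeq2, with 1 at an unadjusted p under 0.05 and a median of 0.14. Of the 8 factors 1 was called, Cox7a2l. Over the summed subunits, the ratio of the top to the bottom bin was 1.15 ± 0.0469 for complex IV, 1.11 ± 0.0280 for complex III, 1.07 ± 0.0321 for complex V, 1.07 ± 0.0726 for complex II and 1.05 ± 0.0201 for complex I. Complex IV exceeded complexes I, II and V, and complex III exceeded complex I, in 4 of 4 libraries. None of the 10 pairs of complexes passed the exact permutation test (p = 0.125 at the lowest, and 0.312 after adjustment).

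**Figure D5:**
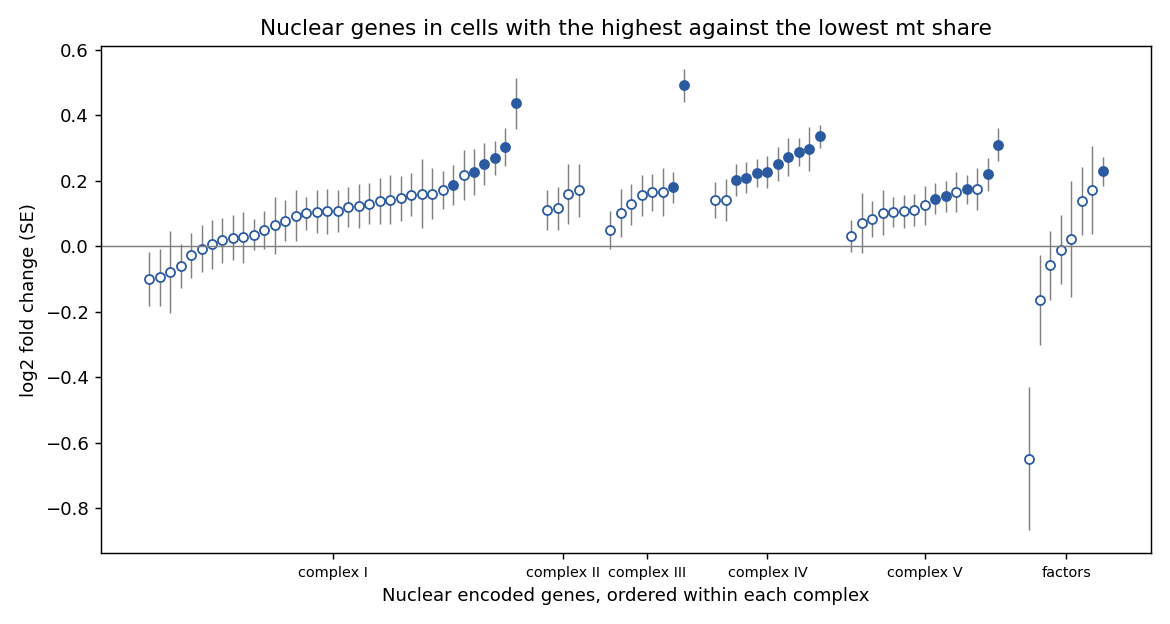
Points give the log2 fold change of each of the 82 nuclear members between the top and bottom bin of cells by mitochondrial share, with its SE, ordered within each complex. Filled points passed an adjusted p of 0.05 and open points did not. The filled points lie above 0, between 0.15 and 0.49, and 9 of the 11 of complex IV are filled.

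Other measures moved with the same split, and their part in the result was not tested beyond the values given here. Cells in the top bin had 1.11 ± 0.0221 times the median UMIs of those in the lowest. When cells were split into 4 bins by UMIs per cell instead, the nuclear subunit sum rose with depth in each library. It was 11681, 12658, 11778 and 11351 CPM in the bin with the fewest UMIs, in replicates 1 to 4. In the bin with the most it was 14385, 15118, 14321 and 13939 CPM. This was a wider difference in each library than that between the bins by mitochondrial share. When the 4 bins were taken within 10 depth bins, which made the medians equal, the nuclear subunits still differed by 1.06 ± 0.0246 times, and 19 of 82 members were called, all higher. Markers of border and blood myeloid cells were 5.85 ± 0.700 times higher in the top bin, and microglia markers were at 0.929 ± 0.0114 times. Without all cells past a marker gate (described below), 22 of 82 were called, all higher, 21 of them among the 23. Of the cytoplasmic ribosomal proteins 83 of 97 were called higher, with a median log2 fold change of 0.35. Proteins of the mitochondrial ribosome, which translate the mitochondrial genes, had 3 of 75 higher and 0 lower, with a median of -0.02. In glycolysis, the cytosolic route to ATP, 2 of 13 enzymes were called, Gapdh and Pkm, both higher, with a median of 0.06.

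Genes that surround the complexes were read from 4 further lists. Of 6 other subunits and carriers, the highest were Atpif1, the inhibitor of ATP synthase (289 ± 10.3 CPM), Ucp2, a carrier of the inner membrane (217 ± 17.4), and 2010107E04Rik (177 ± 11.5). The last was called in the comparison of top and bottom bins (log2 fold change 0.37 ± 0.0594, edgeR adjusted p = 1.96e-08). Of the assembly factors Cox17, the copper chaperone of complex IV (175 ± 15.6 CPM), Pet100 (114 ± 6.22) and Coa3 (113 ± 5.08) were the highest. Of 33 tested, edgeR and DESeq2 called 0, and 1 had an unadjusted p under 0.05. Among genes for the upkeep and expression of mitochondrial DNA, Ssbp1, which binds its single strands, was at 106 ± 6.96 CPM, Slirp at 103 ± 8.27 and the polymerase Polg at 40.7 ± 2.72. Ssbp1 was the single one of 12 called, and it was lower in the top bin (-0.24 ± 0.0745, edgeR adjusted p = 0.0354), while DESeq2 called 0 of the 12. Of the nuclear regulators Yy1 (62.3 ± 3.44 CPM), Tfeb (35.9 ± 2.98) and Nrf1 (31.6 ± 4.33) were the highest, and Ppargc1a, the coactivator PGC-1alpha known to drive mitochondrial biogenesis, had 1 UMI in all 4 libraries. Of 7 regulators tested, edgeR and DESeq2 called 0, and 1 had an unadjusted p under 0.05.

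Promoters of 70 of the 82 nuclear members were in the RefSeq table (GRCm38.p6, 300 bases each, from 250 before to 50 after the start). Binding motifs of regulators of respiratory genes were searched on both strands as exact letters, with matches of 1 motif allowed to overlap, and a gene counted when any of its promoters held the motif. The NRF1 motif GCGCATGCG was in 9 of the 70 (12.9%), against 1.95% of 27025 genes in the table. The YY1 motif AAGATGGCG was in 8 (11.4%), against 1.64%, and the ETS motif CCGGAAG, which GABPA binds, in 17 (24.3%), against 9.93%. The SP1 motif GGGCGGG was in 34.3% against 27.9%, CCAAT in 42.9% against 41.1%, and TATAAA in 7.14% against 15.7%. These are matches of letters and not sites of binding. The 27025 genes were not limited to those that reached 10 CPM here, as the members were. The part of expression in these shares was not tested. Among the members called in the comparison of top and bottom bins, the 3 with the smallest p that had a single promoter on record with an NRF1, ETS or YY1 match are shown 5′ to 3′, on the minus strand, with those matches in capitals. They lie at chr4:116075021-116075320, chr19:7217567-7217866 and chr15:102670998-102671297, and Cox8a (log2 fold change 0.29 ± 0.0431) holds 2 ETS matches, while the capitals in Atp5g2 join 2 NRF1 matches, 1 on each strand.
Uqcrh: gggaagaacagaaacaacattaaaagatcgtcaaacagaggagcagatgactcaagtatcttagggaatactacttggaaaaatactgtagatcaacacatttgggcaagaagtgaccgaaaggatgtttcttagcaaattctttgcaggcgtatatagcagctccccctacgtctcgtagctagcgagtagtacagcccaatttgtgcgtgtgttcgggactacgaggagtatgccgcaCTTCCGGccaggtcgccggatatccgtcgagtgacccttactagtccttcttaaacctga
Cox8a: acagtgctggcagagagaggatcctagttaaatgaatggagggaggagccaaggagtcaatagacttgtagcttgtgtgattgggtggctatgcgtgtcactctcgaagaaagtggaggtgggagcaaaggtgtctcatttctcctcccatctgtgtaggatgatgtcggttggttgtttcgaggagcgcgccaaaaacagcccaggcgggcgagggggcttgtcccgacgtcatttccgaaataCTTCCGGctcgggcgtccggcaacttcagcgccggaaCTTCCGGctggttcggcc
Atp5g2: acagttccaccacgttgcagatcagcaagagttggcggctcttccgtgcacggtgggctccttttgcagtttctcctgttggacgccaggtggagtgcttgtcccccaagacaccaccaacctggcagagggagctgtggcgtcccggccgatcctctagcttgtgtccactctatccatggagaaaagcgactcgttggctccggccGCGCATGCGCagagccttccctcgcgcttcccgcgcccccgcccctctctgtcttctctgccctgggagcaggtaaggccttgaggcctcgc

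A small number of cells carried markers of other myeloid cells. Cells with at least 3 of 11 border and blood myeloid markers (Mrc1, Pf4, Ccr2 and others, none of them an oxidative phosphorylation gene) numbered 5, 11, 13 and 31 in replicates 1 to 4, of which 20 had exactly 3 markers, while 30 further cells had 2. They carried fewer microglia markers, 5497 to 25994 CPM against 34991 to 36687 CPM in the other cells. Nuclear subunits stood at 17759, 14559, 16140.1 and 16359 CPM in these cells, against 13123, 13993, 13117 and 12860 CPM in cells past no gate, and the groups did not overlap. Mitochondrial genes stood at 16732, 15997, 15479 and 18333 CPM, against 14664, 13129, 11967 and 12510 CPM. Both were higher in 4 of 4 libraries, by 0.29 ± 0.162 and 0.35 ± 0.153 on the log2 scale (SD, n = 4, exact two-sided sign-flip permutation test, p = 0.125 each, the smallest possible). The ratio of the genomes differed by 0.06 ± 0.218.

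The gate cells were also deeper, with median UMIs of 3271 to 10392 against 1903 to 2932 in the other cells. Against the 20 cells of the same library nearest in UMIs to each of them, depth was not equal in 2 libraries, with mean UMIs of 10303 against 6831 in replicate 2 and 6863 against 4747 in replicate 3. The differences in this comparison were 0.18 ± 0.152 for nuclear subunits, higher in 3 of 4 libraries, and 0.24 ± 0.155 for mitochondrial genes, higher in 4 of 4. Of the 94 members, edgeR and DESeq2 called 0, while 3.37% of 9579 genes were called by edgeR. At an unadjusted p under 0.05 there were 4 members, all higher, and 1328 of the 9579 genes, a larger share. The count of members was 15 (13 higher) without replicate 1, 1 (0 higher) without replicate 3 and 0 without replicate 4. It was 10 (all higher) with DESeq2 size factors and 20 (18 higher) with no library block. The 4 were mt-Co1 (2235, 2126, 2544 and 2808 CPM against 1282 to 1582 CPM, log2 fold change 0.69 ± 0.304, edgeR adjusted p = 0.254), Cox6b1 (0.57 ± 0.264), Cox5a (0.57 ± 0.272) and Atp5e (0.54 ± 0.262). The median log2 fold change of the nuclear members was 0.10, against -0.22 for all genes, so the members are to be read against that shift. It was 0.02 without replicate 4, 0.05 without replicate 3 and -0.03 with a limit of 4 markers, where 36 of 82 were above 0, so its direction rests on the limit. All 11 nuclear complex IV subunits were above 0 (median 0.37), and 12 of 15 of complex V (median 0.27), but 17 of 36 of complex I (median -0.01) and 0 of 4 of complex II (median -0.24). Cytoplasmic ribosomal proteins had a median of 0.62 in the same cells. In the 4 further lists edgeR and DESeq2 called 0 genes of 60, with 3 at an unadjusted p under 0.05. Of 13 glycolytic enzymes 1 was called, Ldhb, a subunit of lactate dehydrogenase, which was lower (-1.13 ± 0.294, edgeR adjusted p = 0.0058) and was also called by DESeq2.

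Interferon-marked cells showed no member past the threshold. Cells with at least 4 of 10 interferon-responsive markers (Ifit1, Isg15 and others) numbered 25, 21, 11 and 12 (6 cells past both gates were counted with the border cells), and carried 28020 to 31737 CPM of microglia markers. Genes of MHC class II stood at 299, 28.4, 11959 and 11304 CPM in them, against 277, 136, 133 and 560 CPM in the other cells. Border and blood myeloid markers reached 652 CPM in replicate 4, against 31.1 CPM. The make-up of the gate cells thus differed between libraries. Nuclear subunits stood at 13619, 13433, 12035 and 13826 CPM, higher than the other cells in 2 of 4 libraries (log2 difference -0.01 ± 0.104, exact two-sided sign-flip permutation test, p = 0.875). Mitochondrial genes stood at 17684, 12312, 11539 and 14421 CPM, also higher in 2 of 4 (0.08 ± 0.182, p = 0.500 by the same exact test). The groups overlapped in both sums. Of the 94 members, edgeR and DESeq2 called 0, against 1.92% of 9450 genes by edgeR. At an unadjusted p under 0.05 there were 10 members, all lower, and 960 of the 9450 genes, a like share. With DESeq2 size factors in edgeR the count of members was 5, of which 1 was higher, and with DESeq2 it was 0. The smallest p belonged to Atp5b (246, 199, 306 and 283 CPM against 324 to 352 CPM, log2 fold change -0.66 ± 0.228, edgeR adjusted p = 0.130), Ndufa9 (-1.02 ± 0.377) and Ndufaf7 (-1.94 ± 0.733), the latter 2 on 14 and 3 UMIs in the gate cells. The median of the nuclear members was -0.24 and that of all genes -0.34 under TMM scaling, and -0.01 and -0.11 under DESeq2 size factors, so the scaling moved all genes by more than 0.1. It also moved the split of all calls, from 110 higher and 71 lower to 137 higher and 12 lower. In the 4 further lists edgeR and DESeq2 called 0 genes of 60, with 6 at an unadjusted p under 0.05.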

How the data were processed

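Single-cell 3′ RNA libraries of sorted CD45+/CD11b+ brain cells from 4 mice were analysed. The authors deposited counts of UMIs per gene and cell, made with bcl2fastq and Cell Ranger 2.2.0 against the mouse genome mm10 with a filtered Ensembl annotation, and Seurat is also named in the submitters' processing notes. The counts are not normalised, and filtered barcodes were deposited.

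Cells under 400 genes or over 10% mitochondrial UMIs were left out, and no doublet caller was run. UMIs were summed per library and scaled to CPM, and log2 values used a pseudocount of 1. Library totals ran from 5841671 to 11267195 UMIs, so counting error was small for sums and larger for the marker gates of 5 to 31 cells. Sums were compared by exact sign-flip permutation over libraries, and genes by edgeR 4.0.16 (quasi-likelihood, TMM, R 4.3.3) on counts summed per library and cell group. The library was a block because both cell groups come from the same mouse. DESeq2 1.42.0 was an alternative. Python 3.11.15, NumPy 2.4.6, SciPy 1.17.1 and pandas 2.3.3 were used. The statistics were tested on simulated data.

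The members and lists were chosen with earlier results of these data known. Named genes were the 13 mitochondrial genes, the 3 highest and the lowest nuclear subunits per complex, the paralog families, members with 1 library apart, up to 6 called members per comparison and direction by fold change (all of them if 12 or fewer, the 3 with the smallest p if none), and the 3 highest and the called genes of 4 pathway lists (other subunits and carriers, assembly, mitochondrial DNA expression, nuclear regulators). Genes named outside this rule (the other called subunits, Uqcrc2, Cox5a, Cox7a2, Atp5e, Gapdh, Pkm, Ldhb and Ppargc1a) were chosen after their values were seen. The study's supplement places a sorter clog in its final mouse, called sample 4 there. The supplement found its signature of ex vivo activation, which includes immediate early genes, almost only in that mouse. It ties this to extra time at room temperature, extra changes of temperature or both. The labels number the libraries otherwise, so that mouse was not matched to a library here, and replicate 4 is a number of accession order. Replicate 4 was the library with raised immediate early genes (2640 CPM against 1013 to 1173 CPM), and whether it came from that mouse was not tested. The permutation p-values printed here measure how a difference within libraries varied among these libraries. Those of edgeR rest on counting error and on a variance estimated over genes together.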

Additional observations from a re-analysis of the deposited data

Results flagged for a closer look

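Of 171 values tested over the 4 libraries, 3 had 1 library apart from the other 3 by Dixon's range test, which compares the widest gap with the whole range and flags a small share of groups by chance. Ndufb10 was high in replicate 2, at 178 CPM against 156 to 158 CPM, with a gap of 0.903 of the range. The share of mt-Nd4l among mitochondrial transcripts was low in replicate 4, at 0.472% against 0.501% to 0.507%, with a gap of 0.837. The mean number of nuclear subunit UMIs in cells thinned to 1000 UMIs was high in replicate 2, at 13.8 against 12.8 to 12.9, with a gap of 0.854.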

How the results depend on the processing

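Of the summary results recomputed under the alternatives, 136 values were counted as kept and 10 as moved. Sums, ratios and differences of sums counted as kept when their mean stayed within the SD of the main result without a change of sign. Leaving out 1 library cannot move a mean of 4 libraries that far, so such values could only be kept. The complex IV ratio was 1.85 when complexes were read from the symbol alone, against 1.69. Members with 1 library apart numbered 2 with totals that leave out mitochondrial genes, with TMM, with DESeq2 size factors and with no filter on low values, against 1. This count could not be made without a replicate, since the test was used for 4 libraries. In the border gate the fit with no replicate block called 2 members (Cox6b1 and mt-Co1), and leaving out each replicate in turn gave 0 to 1, with mt-Co1 called without replicate 1. All-gene calls there ran from 125 (without replicate 4) to 516 (no replicate block), against 323, with 180 without replicate 3, 164 at 4 or more markers and 504 with no filter. In the interferon gate they ran from 102 (without replicate 4) to 229 (no filter), against 181, with 107 without replicate 1 and by DESeq2. In the comparison of cells rich and poor in mitochondrial transcripts 4 members were called with no replicate block, 15 by DESeq2 (49 members had an adjusted p) and 8 with cells thinned to 1000 UMIs, against 23, and leaving out each replicate gave 18 to 23. Without replicate 2, 22 were higher and 1 lower. All-gene calls there were 104, 204 and 173 in the first 3 settings, against 417. Of the named genes, 65 values stayed on their side of the threshold, and 6 lost significance with the same direction: Atp5g2 when thinned, Ndufa3 with no block and when thinned, and Cox7b with no block, in depth bins and when thinned. The causes were not tested. The comparison without cells past a marker gate, and that with the cells nearest in UMIs, were added after seeing the data. Depth limits the gates, since genes at low levels had few UMIs in 60 and 69 cells.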
